A study of Mus musculus with 37 samples.

Results

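Open chromatin was compared between whole 1-cell mouse embryos and isolated maternal and paternal pronuclei of stage PN5, all taken 12 h after fertilization. Members are the DNase I hypersensitive sites (DHSs) that the authors listed for these 3 groups, 844 for 1-cell embryos, 4794 for maternal and 2667 for paternal PN5 pronuclei. Together they are 8305 of the 52649 entries in the 11 DHS lists used here. Pronuclear sites that share at least 1 bp were merged, which gave 5498 merged PN5 sites, and a 1-cell site was assigned to a parental genome when it overlapped a site of that pronucleus by at least 1 bp. Positions are on mm9, per the submitters' processing notes. The 1-cell sites carry the authors' annotation class (promoter, intergenic, intron or exon), which the labels do not define, and the pronuclear sites carry none.

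The assay was a low-input DNase-seq: nuclei are treated with DNase I, which digests exposed DNA first, and the short fragments it frees are sequenced. Each group had 2 samples. The 1-cell embryos were made by in vitro fertilization of oocytes from 8-week-old superovulated BDF1 females, with 100 embryos per library and with polar bodies removed before lysis. The sample labels give JF1 sperm for these embryos and the protocol text gives BDF1 sperm, and the files used here do not settle which is right. The pronuclei are labelled as strain BDF1, also with donor females of 8 weeks, and each maternal and each paternal library held 170 pronuclei. The 1-cell embryos were digested with DNase I diluted 1:12.5 and the pronuclei with DNase I diluted 1:25, a concentration 2.00 times as high in the embryos. The labels name no treatment other than DNase I and no genetic change for these 3 groups.

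After fertilization the maternal and paternal genomes stay in separate pronuclei until the first division. PN5 is the last of the numbered pronuclear stages, when the pronuclei lie close together after DNA replication. The paternal genome arrives packaged with protamines, which are replaced by histones soon after sperm entry, while the maternal genome comes from the oocyte with histones in place. Transcription begins at a low level in this period. Hypersensitive sites mark nucleosome-poor DNA, typically at active or poised promoters and at regulatory elements bound by transcription factors. A whole 1-cell embryo holds both genomes, so its list can be set against the pronuclear lists site by site.

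The lists hold positions without a height or score, and there is 1 list for each group of 2 samples. No test across samples is therefore possible, the depth of these libraries is not known, and how the 2 samples were combined is not stated in the labels. Shares below carry exact Clopper-Pearson 95% intervals over sites. They cover counting error only, and sites of 1 list are not replicates of a condition. A list cannot separate a site that was open in fewer embryos from a site that was less open in each. A site missing from a list may have been below the authors' threshold. The parental labels were checked on Y, which only sperm can bring. The maternal PN5 list had 0 sites on Y among 4794, the paternal PN5 list had 26 and the 1-cell list had 6.

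Most 1-cell DHSs were listed on both parental genomes. Of the 844 sites, 518 (61.4%, interval 58.0 to 64.7) overlapped a maternal and a paternal PN5 site. A further 171 (20.3%, 17.6 to 23.1) overlapped a maternal site alone, and 18 (2.13%, 1.27 to 3.35) a paternal site alone. The remaining 137 (16.2%, 13.8 to 18.9) overlapped neither list. Among all 22621 sites listed at any of the 5 embryo stages, 8.13% overlapped both pronuclear lists, 8.71% the maternal list alone, 1.87% the paternal list alone and 81.3% neither. The 1-cell share on both genomes was thus far above this background, and the share on the paternal genome alone was near it. Most of the 22621 sites come from the later lists, and the high share was not particular to the 1-cell list. Of 1006 2-cell sites 55.4% were on both genomes (52.2 to 58.5). Among promoters this share was 67.1% at the 2-cell stage (63.6 to 70.4) and 64.3% at the 1-cell stage (60.7 to 67.7). The maternal list is the longer of the pronuclear lists, 4794 sites against 2667. The part of list length in the surplus of maternal-alone over paternal-alone sites was not tested.

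Where a 1-cell site was on both genomes, the maternal and paternal PN5 sites nearly always overlapped each other. They shared a base in 515 of the 518 sites (99.4%, interval 98.3 to 99.9). In 299 of these 518 each parent's sites covered at least 50% of the 1-cell site. That leaves little room for them to lie apart, so there the count says little about their position. Among the other 219 sites, 216 held a shared base (98.6%, interval 96.0 to 99.7). The counts are a description of the sites. The widest promoter-class site of this kind was chr19:54018481-54019290, 810 bp wide. Its maternal PN5 site was chr19:54019081-54019290 and its paternal PN5 site chr19:54019101-54019270, both at the right end of the 1-cell site. This promoter was also listed in the oocyte, in maternal and paternal PN3 pronuclei and at all 4 later stages. The promoter site chr9:115219101-115219830 held the maternal site chr9:115219621-115219810 and the paternal site chr9:115219621-115219770, which start at the same base. The promoter site chr15:36108821-36109470 held the maternal site chr15:36109001-36109170 inside the wider paternal site chr15:36108961-36109210. Outside promoters, the widest site was the intergenic chr1:7387961-7388530. It overlapped 2 maternal sites, chr1:7387861-7388090 and chr1:7388141-7388290, and 1 paternal site, chr1:7387941-7388130, and it was listed in the oocyte and both PN3 lists too. The widest intronic site, chr17:26853181-26853730, held maternal and paternal sites that end at the same base, 26853390. These 5 sites and those named below were chosen by width within class and category.

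The sites found on the maternal genome alone included the promoter site chr2:143740621-143741350, 730 bp wide, with the maternal PN5 site chr2:143740781-143741070 in it. That promoter overlapped sites of both parents at PN3, so its paternal copy had been listed at 7.5 h. The promoter site chr7:25668961-25669670 overlapped 2 maternal sites at PN5 and overlapped maternal but not paternal PN3 sites. The promoter site chr1:58052641-58053230 held 1 maternal PN5 site and was listed on both genomes at PN3. The intergenic site chr13:104564221-104564810 was listed in maternal pronuclei at PN3 and PN5 and again in 8-cell embryos and morulae.

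Paternal-alone sites were few. The widest promoters among them were chr4:44769001-44769550, chr17:23701041-23701510 and chr18:31919141-31919610, each with 1 paternal PN5 site. The latter pair overlapped a maternal and no paternal PN3 site, and the first overlapped no PN3 site. The widest sites of other classes were both on Y, chrY:2782041-2782890 with 1 paternal PN5 site and chrY:2857441-2858210 with 3. Off the sex chromosomes 13 of 807 1-cell sites (1.61%, interval 0.860 to 2.74) were on the paternal genome alone.

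Promoters were listed in pronuclei more often than sites of other classes. Of 736 promoter-class 1-cell sites, 638 (86.7%, interval 84.0 to 89.1) overlapped a PN5 site, against 69 of 108 other sites (63.9%, 54.1 to 72.9), and these intervals do not overlap. Over all stage lists 33.4% of promoter-class sites and 6.96% of other sites overlapped a PN5 site, so 1-cell sites of either class exceeded the share of their class. The share on both genomes was 64.3% for promoters (60.7 to 67.7), 40.7% for 81 intergenic sites (29.9 to 52.2), 36.8% for 19 intronic sites (16.3 to 61.6) and 5 of 8 for exonic sites. The share on neither genome was 13.3% for promoters (10.9 to 16.0), 34.6% for intergenic (24.3 to 46.0) and 42.1% for intronic sites (20.3 to 66.5). Read the other way, promoters made up 91.3% of the sites on both genomes (88.5 to 93.6) and 90.6% of those on the maternal genome alone (85.3 to 94.6). They made up 71.5% of the sites on neither genome (63.2 to 78.9) and 10 of the 18 paternal-alone sites, of which 5 were the intergenic sites on Y. On autosomes promoters made up 10 of 13 paternal-alone sites (76.9%, 46.2 to 95.0) and 72.5% of the sites on neither genome (64.0 to 80.0), with overlapping intervals.

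**Figure D1:**
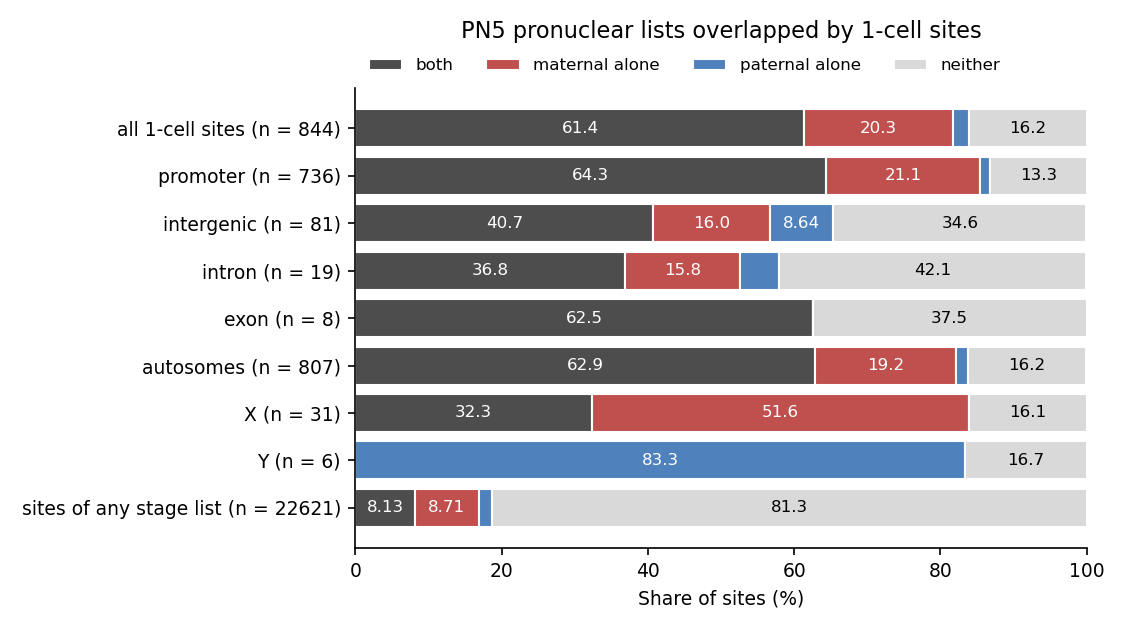
Stacked bars give the share of 1-cell sites, in percent on the horizontal axis, that overlapped both PN5 lists, the maternal list alone, the paternal list alone or neither, for all sites, each class and each type of chromosome, with the number of sites in brackets. The bar for promoters reads 64.3% on both genomes, the intergenic bar 40.7%, and the lowest bar, for sites of any stage list, 8.13%.

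On X, sites on the maternal genome alone outnumbered sites on both genomes. Every maternal pronucleus carries an X, while a paternal pool mixes X-bearing and Y-bearing pronuclei, so fewer copies of X and lower accessibility per copy cannot be told apart in the paternal list. Of 31 1-cell sites on X, 10 were on both genomes (32.3%, interval 16.7 to 51.4), 16 on the maternal genome alone (51.6%, 33.1 to 69.8), 0 on the paternal genome alone and 5 on neither. The count of 0 allows a share of up to 11.2% by the exact interval and 9.68% by a limit of 3 sites of 31. On autosomes the shares were 62.9% on both (59.5 to 66.3) and 19.2% on the maternal genome alone (16.5 to 22.1). The widest X site was the intergenic chrX:72919261-72919870, with 2 maternal PN5 sites, and it was also listed in the oocyte, in maternal PN3 pronuclei and at all 4 later stages. Of the 16 maternal-alone X sites, 5 had been listed on both genomes at PN3, 6 on the maternal genome alone and 5 on neither.

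All 6 of the 1-cell sites on Y were intergenic, and 5 of them overlapped a paternal PN5 site. The sixth, chrY:2883621-2884090, named after its values were seen, overlapped a paternal PN3 site and no PN5 site. All 6 overlapped paternal PN3 sites and 4 overlapped sperm sites. A group of 4 sites lay within chrY:2779701-2782890, and no other place in the 1-cell list held 3 or more sites at most 10 kb apart. No other 1-cell site overlapped the sperm list, so 4 of 844 did (0.474%, interval 0.129 to 1.21), against 0.0486% of all stage sites. The sperm list itself lay mostly on Y, with 59 of its 87 sites there.

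Across the autosomes the share on both genomes ran from 50.0% on chromosomes 3 and 13 to 79.2% on chromosome 12, which held 24 1-cell sites. The share on neither ran from 6.82% on chromosome 5 to 23.4% on chromosome 11. Chromosome 11 held the most 1-cell sites of any chromosome, 94, with 59 on both genomes and 22 on neither.

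The 1-cell sites were wider than the pronuclear sites. Their median width was 310 bp (range 150 to 850), against 190 bp in both PN5 lists (150 to 490 maternal, 150 to 510 paternal). At least 200 bp wide were 96.3% of 1-cell sites, 34.4% of maternal and 32.8% of paternal PN5 sites. The width of a 1-cell site is not its own, because the 5 stage lists draw on a common set of coordinates. Of the 844 sites 820 had the same start and end in a later stage list, and no site of the common set overlapped another. The 820 had a median width of 310 bp and the 24 listed at no later stage one of 250 bp. PN5 sites mostly lay wholly inside a 1-cell site, at 507 of 689 sites with a maternal overlap (73.6%) and 402 of 536 with a paternal overlap (75.0%). They covered a median of 58.6% (maternal) and 60.0% (paternal) of the 1-cell site. Of the 281 kb in 1-cell sites, 44.9% was also covered by maternal PN5 sites, 35.1% by paternal ones, 27.7% by both and 52.4% by either.

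Wider 1-cell sites were not found on both genomes more often. By width, the share on both was 58.6% at 150 to 230 bp (interval 50.5 to 66.4), 68.0% at 250 to 290 bp (61.5 to 73.9), 66.0% at 310 to 370 bp (59.2 to 72.4) and 53.0% at 390 bp or more (46.6 to 59.4). The share on neither was 17.8% (12.2 to 24.7), 11.3% (7.49 to 16.1), 13.9% (9.49 to 19.3) and 21.9% (16.9 to 27.5) in the same order. Sites of 390 bp or more thus had a lower share on both genomes than sites of 250 to 290 bp, with intervals that do not overlap. Among promoters alone the shares on both were 71.8% at 250 to 290 bp (64.9 to 78.0) and 55.7% at 390 bp or more (48.8 to 62.3). In each width bin the promoter share on a PN5 site was above that of the other classes. It was 86.7% (79.7 to 91.9) against 54.5% of 22 sites (32.2 to 75.6) at 150 to 230 bp, and 92.8% (88.2 to 96.0) against 66.7% of 36 sites (49.0 to 81.4) at 250 to 290 bp. At 310 to 370 bp it was 88.6% (83.2 to 92.8) against 66.7% of 24 sites (44.7 to 84.4), and at 390 bp or more 79.6% (73.7 to 84.7) against 65.4% of 26 sites (44.3 to 82.8). The intervals overlap in the latter pair of bins.

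The parental split turned on which PN5 widths were counted. With only PN5 sites of at least 200 bp, 6.75% of the 844 1-cell sites were on both genomes, 19.8% on the maternal alone, 13.7% on the paternal alone and 59.7% on neither. The maternal-alone share was close to the 20.3% at any width, but it was made up of other sites. Of the 171 maternal-alone sites at any width 65 stayed maternal alone and 106 were then on neither genome, while 102 sites on both genomes became maternal alone and 112 paternal alone. Under the same limit a PN5 site overlapped 42.0% of promoters and 28.7% of sites of other classes. When PN5 sites had to cover at least 50% of the 1-cell site, 35.4% were on both genomes, 8.18% on the paternal genome alone and 36.4% on neither. The widths of the maternal and paternal PN5 site within the same 1-cell site were weakly correlated. Over 493 sites with a single PN5 site of each parent, their Spearman rho was 0.09 and Pearson r 0.11, with the widths in steps of 20 bp. In these 493, 30.0% of maternal and 32.9% of paternal sites reached 200 bp, and both did in 54 (11.0%). The correlation is a description across sites of 2 lists, and that of a pronuclear site's width with the width of the 1-cell site around it was as low (rho 0.08 maternal, 0.10 paternal).

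**Figure D2:**
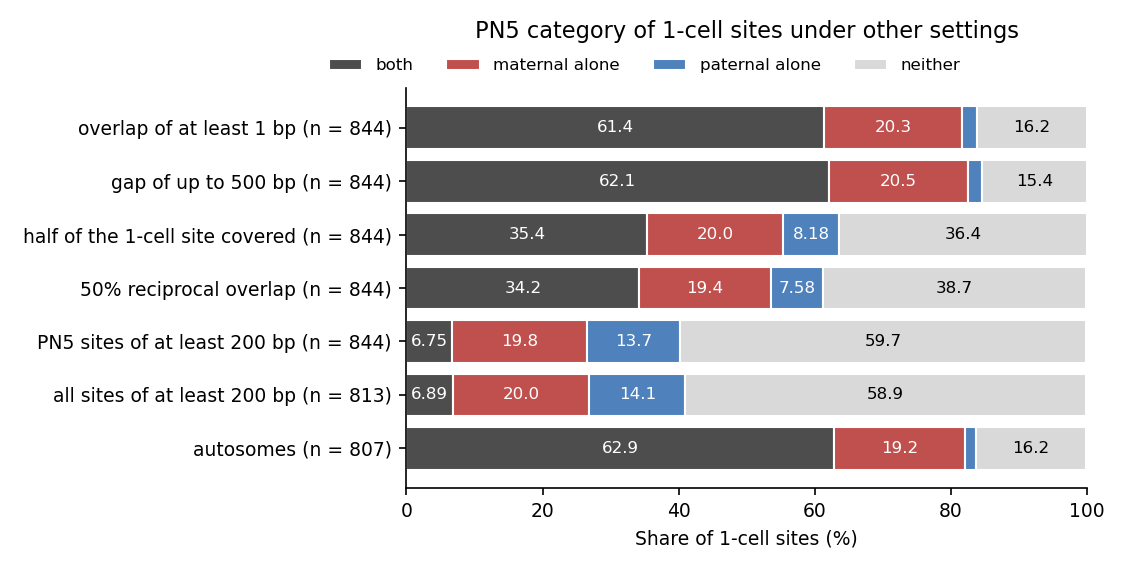
Stacked bars give the share of 1-cell sites, in percent on the horizontal axis, in each PN5 category under 7 ways of counting overlap, with the number of 1-cell sites in brackets. The share on both genomes is 61.4% at an overlap of 1 bp, 34.2% at 50% reciprocal overlap and 6.75% with PN5 sites of at least 200 bp, while the maternal-alone share is between 19.2% and 20.5%, made up in part of different sites.

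The 137 sites on neither genome were mostly not near misses. Their median distance to the nearest PN5 site was 74.2 kb (range 30 bp to 1910 kb), with 7 of them within 500 bp and 18 within 10 kb. The widest promoters among them were chr5:31350401-31351190 (790 bp), chr15:81229841-81230570 (730 bp) and chr2:22750861-22751530 (670 bp), at 191790, 65970 and 173030 bp from the nearest PN5 site. The promoter on chromosome 5 was listed again at all 4 later stages, that on chromosome 15 from the 4-cell stage on and that on chromosome 2 from the 8-cell stage on. The widest other sites were the intergenic chr2:166553501-166554230 and the exonic chr17:17974901-17975510. The 137 were less often listed in the other samples than sites on both genomes. A PN3 site overlapped 41 of them (29.9%, interval 22.4 to 38.3), against 495 of the 518 sites on both genomes (95.6%, 93.4 to 97.2). Over all stage sites the share was 19.0%, but that pool differs in class. Promoters made up 71.5% of the 137 sites and 10050 of the 22621 stage sites. No PN3 background by class was taken, so the 137 cannot be placed above or below a like background. A later stage listed 119 of them (86.9%, 80.0 to 92.0), against 516 of 518 (99.6%, 98.6 to 100). The share over all stage sites, 99.9%, is set by how that pool was made, since most of its sites come from the later lists.

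That left 18 sites found in the 1-cell list and in none of the other 10 lists. They comprised 6 promoters, 8 intergenic, 3 intronic sites and 1 exonic site, with widths of 190 to 450 bp and a median of 260 bp. The widest was the intronic chr4:147456541-147456990. Promoters chr13:111184441-111184810 and chr13:111070221-111070550 were among the 4 widest, and the promoter chrX:166416521-166416710 and exon chrX:166419721-166419990 lay close together. These 5 sites were named after their values were seen.

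The parental category at PN5 went with how often a site was listed in the other samples. The oocyte list, from GV oocytes of 14-day-old females, held 241 of the 518 sites on both genomes (46.5%, interval 42.2 to 50.9), 26 of 171 maternal-alone sites (15.2%, 10.2 to 21.5), 1 of 18 paternal-alone sites and 3 of 137 sites on neither (2.19%, 0.454 to 6.27). The background over all stage sites was 3.69%, so the sites on neither genome were at background there. The oocyte has only a maternal genome, yet the sites on both genomes were the ones it held most often. Among promoters alone the oocyte shares were 48.2% on both (43.6 to 52.8), 16.1% maternal alone (10.7 to 22.9) and 2.04% on neither (0.248 to 7.18). On autosomes alone they were 46.1%, 16.1% and 2.29%.

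At PN3, taken at 7.5 h, most sites on both genomes kept their category, as did 96 of the 137 sites on neither. Most maternal-alone sites did not, and of the 18 paternal-alone sites 6 were paternal alone at PN3. Of the 518 sites on both genomes at PN5, 423 were on both at PN3, 37 on the maternal genome alone, 35 on the paternal alone and 23 on neither. Of the 171 maternal-alone sites, 77 were on both genomes at PN3, 40 on the maternal alone, 13 on the paternal alone and 41 on neither. A paternal PN3 site thus overlapped 90 of these 171 (52.6%, interval 44.9 to 60.3). That was below the share of all 844 1-cell sites (68.5%, 65.2 to 71.6) and above the background over all stage sites, 13.4%. A site listed on 1 genome at PN5 was therefore, in many cases, listed on the other at 7.5 h. A maternal PN3 site overlapped 7 of the 18 paternal-alone sites, and all 7 were promoters on autosomes. The maternal PN3 share was 72.9% over all 844 1-cell sites, with a background of 14.6%. Over all 844 1-cell sites the PN3 lists gave 514 on both genomes, 101 on the maternal alone, 64 on the paternal alone and 165 on neither.

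The later stages kept the order both genomes, maternal alone, neither. The 2-cell list held 52.5% of the sites on both genomes (interval 48.1 to 56.9), 41 of 171 maternal-alone sites (interval 17.8% to 31.1%), 6 of 18 paternal-alone sites and 11.7% of sites on neither (6.82 to 18.3), with a background of 4.45%. Of those 6 paternal-alone sites 4 were on Y. When PN5 sites of at least 200 bp alone were counted, the 2-cell list held 45.6% of the sites on both genomes and 36.5% of those on neither. Among promoters the 2-cell shares were 55.2% on both (50.6 to 59.7), 23.9% on the maternal genome alone (17.4 to 31.4) and 14.3% on neither (8.04 to 22.8), so the order of the categories was the same within this class. At the 4-cell stage the shares were 79.9% on both (76.2 to 83.3), 59.1% maternal alone (51.3 to 66.5) and 30.7% on neither (23.1 to 39.1), with a background of 13.1%. At the 8-cell stage they were 97.3%, 90.1% and 75.2% (background 54.5%), and in the morula 99.6%, 97.7% and 83.9% (background 86.1%). All 4 later stages listed 254 of the 518 sites on both genomes (49.0%, 44.6 to 53.4), 35 of the 171 maternal-alone sites (20.5%, 14.7 to 27.3) and 11 of the 137 on neither (8.03%, 4.08 to 13.9), with a background of 3.23%. The background of each single stage is the length of its list over the 22621 stage sites, so it is set by list length. Later lists are longer, so a larger share at a later stage does not show that sites opened.

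**Figure D3:**
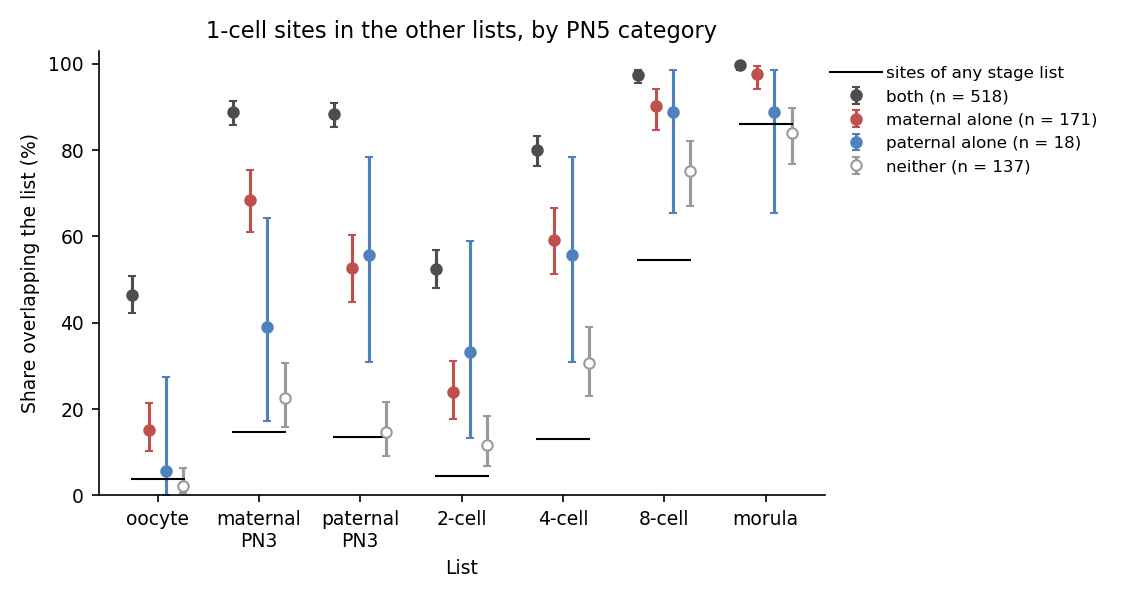
Points give the share of 1-cell sites, in percent, that overlapped each of 7 other lists, by PN5 category, with exact 95% intervals over sites, and black dashes give the share of all sites of any stage list. Sites on both genomes lie highest and sites on neither lowest in the oocyte, PN3 and 2-cell to 8-cell lists, with 52.5% against 11.7% at the 2-cell stage.

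Over all classes the 1-cell list had the highest share of sites on a PN5 site among the 5 stage lists, and among promoters the 2-cell list was level with it. A PN5 site overlapped 83.8% of 1-cell sites (interval 81.1 to 86.2), 74.6% of 2-cell sites (71.7 to 77.2), 58.9% of 4-cell, 28.2% of 8-cell and 21.3% of morula sites. For promoters the 1-cell and 2-cell shares were 86.7% (84.0 to 89.1) and 88.0% (85.5 to 90.2), with overlapping intervals. The 2-cell promoters missing from the 1-cell list overlapped a PN5 site in 83.0% of 465 cases (79.3 to 86.3). Sites of other classes differed, with 63.9% at the 1-cell stage (54.1 to 72.9) and 28.8% at the 2-cell stage (23.0 to 35.2). Of these 229 2-cell sites 134 lay on autosomes, and there the shares were 62.1% of 95 1-cell sites (51.6 to 71.9) and 44.0% of 2-cell sites (35.5 to 52.9), whose intervals overlap. Embryos of the 2-cell and later stages received the same DNase I dilution as the pronuclei, and 1-cell embryos did not. The part of digestion in these shares was not tested.

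**Figure D4:**
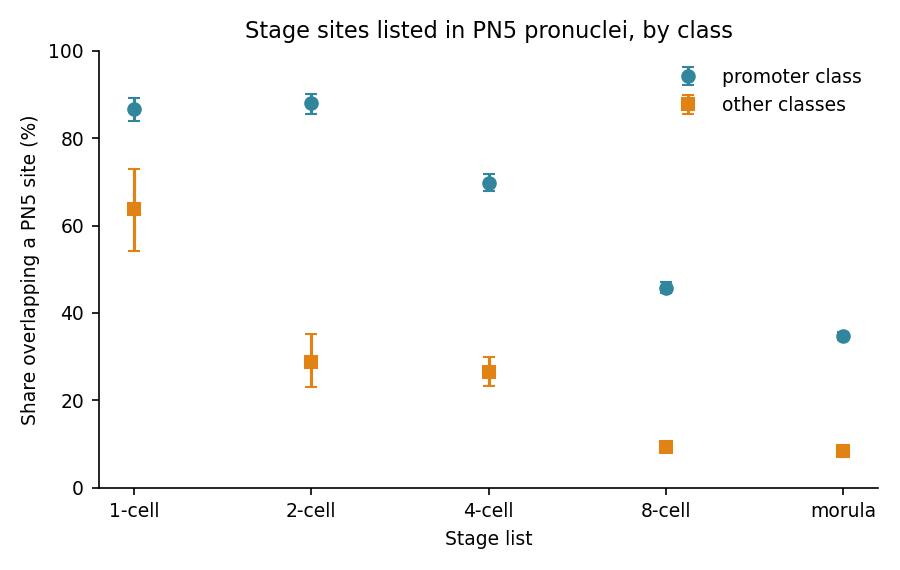
Points give the share of sites of each stage list, in percent, that overlapped a PN5 site of either parent, for promoter-class sites and for the other classes, with exact 95% intervals. Promoters stand at 86.7% and 88.0% at the 1-cell and 2-cell stages and at 34.7% in the morula, and the other classes go from 63.9% to 8.46%.

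Most pronuclear sites were missing from the 1-cell list. Of the 5498 merged PN5 sites, 732 (13.3%, interval 12.4 to 14.2) overlapped a 1-cell site and 4766 (86.7%, 85.8 to 87.6) did not. The 1-cell list held 520 of 1927 merged sites open in both pronuclei (27.0%, 25.0 to 29.0), 184 of 2845 maternal-alone sites (6.47%, 5.59 to 7.43) and 28 of 726 paternal-alone sites (3.86%, 2.58 to 5.53). Among sites of both pronuclei the share was between 25.8% and 30.3% at every width, and among maternal-alone sites between 3.98% and 7.40%. PN5 sites before merging, inside and outside the 1-cell list, had the same median width, 190 bp, in each parent. The missing sites were 1407 open on both genomes, 2661 on the maternal and 698 on the paternal genome alone. The embryos had received the higher DNase I concentration, and the sperm strain used for them is not settled. A library held 100 whole embryos, each with both genomes, or 170 pronuclei of a single parent. The part of each of these differences in the missing sites was not tested. Few of the missing sites flanked a 1-cell site, with 46 of 4766 within 500 bp of one and 115 within 10 kb.

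**Figure D5:**
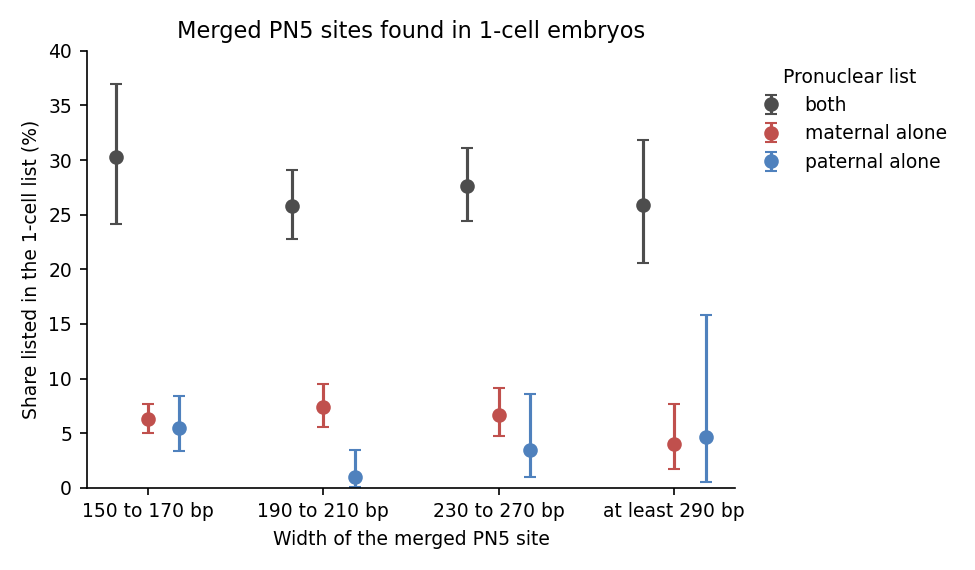
Points give the share of merged PN5 sites, in percent, that overlapped a 1-cell site, by the width of the merged site on the horizontal axis and by the pronuclei that listed it, with exact 95% intervals. Sites of both pronuclei stay between 25.8% and 30.3%, above maternal-alone and paternal-alone sites at every width.

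The missing sites were listed in other samples less often than the 732 merged PN5 sites in the 1-cell list. Of the 4766, 2673 (56.1%, interval 54.7 to 57.5) overlapped a PN3 site and 3437 (72.1%, 70.8 to 73.4) a site of a later stage, while 1026 (21.5%, 20.4 to 22.7) overlapped no other list. Among the 732 merged sites in the 1-cell list these shares were 88.8%, 99.2% and 0.410%. For the 520 of them open in both pronuclei the PN3 and later-stage shares were 95.0% and 99.6%. Over all 5498 merged PN5 sites, which are mostly the missing ones, the 3 shares were 60.4%, 75.7% and 18.7%. The 1407 missing sites open in both pronuclei were the most often found elsewhere. A PN3 site overlapped 86.9% of them (85.0 to 88.6), a later stage listed 92.3% (90.8 to 93.7), the oocyte list held 23.3% (21.1 to 25.6), and 49 (3.48%, 2.59 to 4.58) overlapped no other list. For maternal-alone missing sites these shares were 42.1%, 65.9%, 5.00% and 28.3%, and for paternal-alone missing sites 47.4%, 55.0%, 2.58% and 32.2%. Over all merged PN5 sites the oocyte list held 13.6%, the maternal PN3 list 48.0% and the paternal PN3 list 46.7%, so the missing sites listed in both pronuclei, with 74.7% in each PN3 list, stood above these backgrounds and the others below. The sperm list held 17 of the missing sites, all of them paternal alone (17 of 698, 2.44%, 1.43 to 3.87), against 0.400% of all merged PN5 sites.

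The 2-cell list held 438 of the missing sites (9.19%, interval 8.38 to 10.0), 283 of them open in both pronuclei, against 46.0% of the 732 merged sites in the 1-cell list and a background of 14.1%. Among the missing sites 349 (7.32%, 6.60 to 8.10) were listed at all 4 later stages, against 42.2% of the merged sites in the 1-cell list and 12.0% of all merged PN5 sites. The widest of these were chr8:74093441-74094030, which joins 3 maternal and 2 paternal PN5 sites at an intron, and the promoters chr1:152240121-152240570 and chr5:145964981-145965430. The site on chromosome 8 was also listed in the oocyte and in both PN3 lists. Each of the 3 was thus listed in both pronuclei at 12 h and again at 30 h, and not in whole embryos at 12 h. The widest missing sites were the promoters chr18:12394681-12395350 (670 bp) and chrX:147247521-147248130 (610 bp). At 590 bp the intergenic chr7:91927801-91928390 was as wide as the site on chromosome 8, and all 4 were listed in both pronuclei. The widest on the maternal genome alone were chr2:179905841-179906330 and chr12:114378281-114378750, both at promoters, and chrX:140098721-140099210, which overlapped no other list. On the paternal genome alone they were chr1:132899821-132900230 and chr13:34094421-34094810, in no other list, and chr2:34760521-34760930, at an intron listed from the 4-cell stage on.

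A class could be given to the 3437 missing sites that overlapped a stage site. These were 1299 of 1407 sites open in both pronuclei (92.3%), 1754 of 2661 maternal-alone (65.9%) and 384 of 698 paternal-alone sites (55.0%). The class of the rest is not known. Promoters made up 81.4% of those open in both pronuclei (interval 79.1 to 83.5), 78.7% of the maternal-alone sites (76.7 to 80.6) and 54.4% of 384 paternal-alone sites (49.3 to 59.5), against 89.9% of the 732 merged sites in the 1-cell list (87.5 to 92.0). Paternal-alone sites thus had the lowest promoter share among the missing sites with a class, also on autosomes (54.9% of 379 sites, 49.7 to 60.0).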

How the data were processed

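The files hold the start and end positions of DHSs in the authors' deposited lists, 1 list for each group of 2 samples, with an annotation class in the stage lists. Reads were aligned with Bowtie 0.12.9 to mm9, per the submitters' processing notes. Which peak caller and threshold were used, and how samples were combined, is not stated in the labels. Site starts, taken as 0-based, are printed 1-based. Overlaps of at least 1 bp were computed in Python 3.11.15, and the code was checked against bedtools 2.31.1 and tested on simulated data. Intervals are from scipy 1.17.1, and figures were drawn with matplotlib 3.10.9. Alternatives were 50% coverage, 50% reciprocal overlap, a width of at least 200 bp, a gap of up to 500 bp, merging across 100 bp, a site on both genomes counted only where parental sites share a base, and autosomes alone. The comparisons of 2-cell sites and of promoter shares on autosomes were chosen after seeing the data. Sites named are the 3 widest promoter-class and 2 widest other sites of each parental category, the widest on X and Y, and the 3 widest missing sites of each origin or listed at all 4 later stages. Sites found in the 1-cell list alone were named after their values were seen. The members and lists were chosen with earlier results of these data known. Gene names and sequences are not used here, since no mm9 annotation was used. Lists of gained sites, knockdown tables and RNA values were left out.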

Additional observations from a re-analysis of the deposited data

How the results depend on the processing

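In each group of results below, the values follow the order 50% of the 1-cell site covered, 50% reciprocal overlap, at least 200 bp in both lists and at least 200 bp in the PN5 lists. The share on both genomes was 35.4%, 34.2%, 6.89% and 6.75%, from 61.4%. The paternal-alone share was 8.18%, 7.58%, 14.1% and 13.7%, from 2.13%, and the share on neither genome 36.4%, 38.7%, 58.9% and 59.7%, from 16.2%. The share of promoters on any PN5 site was 65.8%, 63.5%, 42.6% and 42.0%, from 86.7%, and of other sites 49.1%, 46.3%, 30.7% and 28.7%, from 63.9%. The share of sites on neither genome that the 2-cell list held was 31.3%, 33.6%, 38.4% and 36.5%, from 11.7%. For sites on both genomes it was 47.8%, 44.6% and 45.6% under the last 3 settings, from 52.5%, and merged PN5 sites missing from the 1-cell list made up 89.9%, 85.3% and 85.0%, from 86.7%. The cause was not tested. Of 56 values under alternatives, the other 26 lay within the interval of the reported value, including the maternal-alone share under all settings run (19.2% to 20.5%), although 102 of its sites at 200 bp or more in the PN5 lists were on both genomes at any width. Promoters exceeded other classes under each setting run. No paired analysis was possible because each group has 1 list. For the same reason no replicate could be left out. Depth limits which sites reach a list, and it is not known for these libraries.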
